A study of Rattus norvegicus with 12 samples.

Results

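The genes described here control how long-chain fatty acids enter mitochondria. They are Acacb, Mlycd, Cpt1a, Cpt1b and Cpt2, 5 genes of the 14506 that could be tested. They were chosen by name, and each is represented by its platform probe set, of which each gene had 1. The RNA came from the epididymal fat pad (white adipose tissue) of 12 Sprague-Dawley males, each hybridised to its own Affymetrix Rat Gene 1.0 ST array. The design had 4 rats that were fed (Fed), 4 in the second phase of a prolonged fast (P2), when fat is the main fuel, and 4 in the third phase (P3), when protein breakdown increases. Rat ages were not analysed here. Each value covers a piece of tissue, which holds fat cells together with vessels and other cells.

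Long-chain fatty acids cannot cross the inner mitochondrial membrane as acyl-CoA. Carnitine palmitoyltransferase 1 on the outer membrane, encoded by Cpt1a (the liver form) or Cpt1b (the muscle form, also made in rat fat cells), joins them to carnitine, a carrier takes the product across, and carnitine palmitoyltransferase 2 (Cpt2) turns it back into acyl-CoA for beta-oxidation. Malonyl-CoA inhibits carnitine palmitoyltransferase 1. Acetyl-CoA carboxylase 2 (Acacb), which sits at the mitochondrial surface, makes that malonyl-CoA, whereas acetyl-CoA carboxylase 1 (Acaca) makes the cytosolic malonyl-CoA used for fat synthesis. Malonyl-CoA decarboxylase (Mlycd) removes malonyl-CoA. AMP-activated protein kinase (AMPK) phosphorylates and inhibits both carboxylases, a control that an RNA measurement does not show.

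The arrays were alike in level, with medians of all probe sets between 6.03 and 6.13 on the log2 scale. Over all genes, 25.2% passed limma's test (adjusted p below 0.05) in P2 against Fed, 45.4% in P3 against Fed and 27.9% in P3 against P2. Medians over the tested genes averaged 6.82 in P3, against 6.98 in Fed arrays. With each array centred on that median, the share of called genes that were higher changed to 53%, against 38.4% as deposited, in P2 against Fed. In P3 against Fed it changed to 69.6%, against 46.5% as deposited, and in P3 against P2 to 64.9%, against 45.8% as deposited. The median change per gene as deposited was already above 0, at 0.05 in P3 against Fed and 0.03 in P3 against P2. Centring raises every gene of the P3 arrays relative to the other groups, so centred counts in P3 lean toward higher. Among 13 adipocyte markers 12 fell in P3 against Fed, and their summed level lay between 14.65 and 15.23 in P3, against 15.73 to 15.77 in Fed rats. In P2 it lay between 15.72 and 15.75. The label text names liver in its extraction protocol and fat everywhere else. Of 13 hepatocyte markers none was called in P2 against Fed and 1, Alb, in P3 against Fed (lower). The Alb call ended in 11 of 20 alternatives (adjusted p up to 0.137), and with arrays centred 5 of the 13 were higher and 1 lower. Alb averaged 8.33 in Fed, 9.62 in P2 and 6.73 in P3, and the group means of the other 12 lay between 3.42 and 6.58. For scale, 53 olfactory receptor genes, a family with little known use in fat, had a median level of 3.49.

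In each comparison 2 of the 5 genes were higher and none was lower. Acacb rose in phase 2 and again in phase 3. Cpt1a was higher in both phases than in Fed rats, and its difference between the phases did not pass. Cpt1b was higher in phase 3 than in phase 2, without differing from Fed by the test in either phase. Mlycd and Cpt2 did not pass in any comparison. Of all genes, 9.66% were higher and 15.5% lower in P2 against Fed, 21.1% higher and 24.3% lower in P3 against Fed, and 12.8% higher and 15.1% lower in P3 against P2. With 5 genes, counts of this size are no result about the group as a whole.

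**Figure D1:**
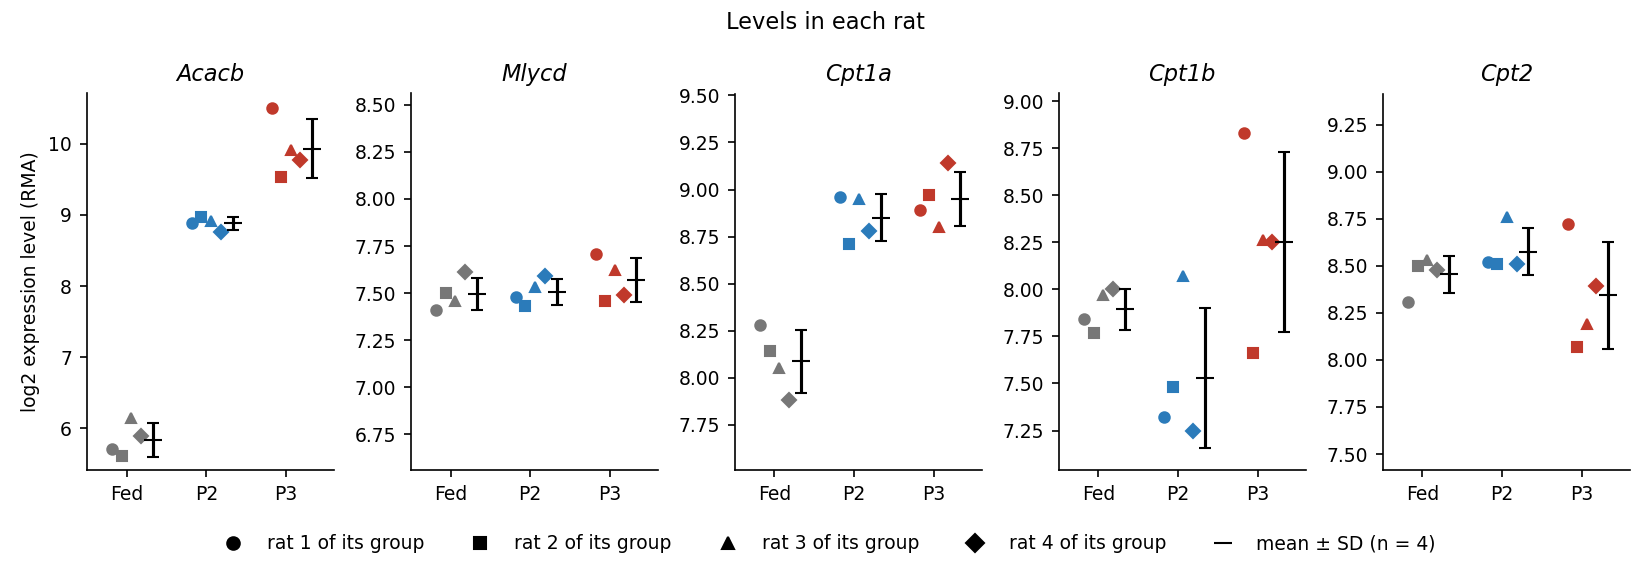
Log2 expression level (vertical axis, a separate scale for each gene) of the 5 genes in each rat by group, with a marker shape for each rat number and the mean ± SD of 4 rats to the right of the points. Acacb lay between 5.61 and 6.14 in Fed, 8.76 and 8.97 in P2 and 9.54 and 10.51 in P3, with no overlap between groups, while the Mlycd and Cpt2 values of the groups overlapped.

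Acacb had log2 levels of 5.70, 5.61, 6.14 and 5.89 in Fed rats 1 to 4, 8.89, 8.97, 8.91 and 8.76 in P2 rats, and 10.51, 9.54, 9.91 and 9.78 in P3 rats. Each phase therefore lay wholly above the one before it. Groups did not overlap for 31% of all genes in P2 against Fed, 41.9% in P3 against Fed and 26.3% in P3 against P2. The Fed mean of 5.84 ± 0.235 (SD, n = 4) lay between the 95th percentile (5.66) and the highest (6.03) of the olfactory receptor genes, so the differences from Fed may be understated. With each Fed value raised to at least 6.03, a bound set after the data were seen, the Acacb means differed 7.08-fold in P2 and 14.7-fold in P3 from Fed (log2 differences of 2.82 and 3.88). These values allow for background and not for the spread among rats. The 95% confidence intervals of the fitted changes from Fed began at 2.68 in P2 and 3.73 in P3. The fit to the deposited values gave 3.05 ± 0.17 (SE) in P2 (limma adjusted p = 5.79e-08) and 4.10 ± 0.17 in P3 against Fed (adjusted p = 4.67e-10). In P3 against P2 the change was 1.05 ± 0.17 (adjusted p = 0.000361). Levels averaged 9.94 ± 0.413 in P3, against 8.88 ± 0.0849 in P2 (SD, n = 4 each), a 2.08-fold difference. Of the 13 adipocyte markers, 2 rose (Acvr1c and Pnpla2) and 2 fell (Lep and Slc2a4) in P2 against Fed, and none rose and 12 fell in P3. Their summed level, to which the brightest markers add most, is given above. The part of the adipocyte markers in the Acacb differences was not tested. Fewer cells of a type and less RNA per cell cannot be told apart in these samples.

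Acacb and Cpt1a were the genes called in both phases against Fed, and the 250 bases before their annotated starts are shown here in the orientation of the gene (RefSeq, build GRCr8). Capitals mark a match, with at most 2 letters different, to 2 copies of AGGTCA with any 1 base between them, the spaced repeat that receptors of the PPAR family are known to bind. The window of Acacb is chr12:48138215-48138464 (minus strand) and that of Cpt1a is chr1:209995910-209996159 (plus strand).
Acacb: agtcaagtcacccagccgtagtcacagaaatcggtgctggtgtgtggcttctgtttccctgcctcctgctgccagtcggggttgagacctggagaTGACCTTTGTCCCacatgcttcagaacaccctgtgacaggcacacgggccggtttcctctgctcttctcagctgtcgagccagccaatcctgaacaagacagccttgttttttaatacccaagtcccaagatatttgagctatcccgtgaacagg
Cpt1a: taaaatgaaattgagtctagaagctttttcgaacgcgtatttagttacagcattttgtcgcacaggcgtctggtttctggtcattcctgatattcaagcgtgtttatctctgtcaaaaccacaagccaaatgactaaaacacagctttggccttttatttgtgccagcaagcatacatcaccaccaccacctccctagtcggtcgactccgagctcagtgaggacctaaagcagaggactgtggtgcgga

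The Acacb window held 1 such match, on the opposite strand, reading GGGACAAAGGTCA from 155 to 143 bases before the start. It includes the hexamer AGGTCA. Over the windows of 27457 genes, 3.11% held the repeat on either strand at this tolerance and 13.7% held AGGTCA. Windows were also available for Mlycd and Cpt2, and neither they nor Cpt1a held the repeat or the hexamer. The forkhead motif TGTTTAC was in none of the 4 windows, against 3.25% of all. The motif GGGCGG occurred 2 times in the Mlycd window and 3 times in that of Cpt2, was in neither Acacb nor Cpt1a, and was in 32.4% of all windows. CCAAT occurred 1 time in Acacb, 2 times in Mlycd and in neither carnitine palmitoyltransferase gene, against 34.3% of all. The windows also differed in composition, with 53.6% G and C in Acacb and 45.6% in Cpt1a, against 65.2% in Mlycd and 66.8% in Cpt2. The middle value over all windows was 52%. These motifs were chosen with the windows in view, and a match is not a measured binding site.

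Mlycd, the enzyme that degrades malonyl-CoA, had levels of 7.41, 7.50, 7.46 and 7.61 in Fed rats, 7.48, 7.43, 7.53 and 7.59 in P2 rats, and 7.71, 7.46, 7.62 and 7.49 in P3 rats. The 3 groups overlapped. Its change was 0.01 in P2 against Fed (95% confidence interval -0.16 to 0.18) and 0.08 in P3 against Fed (-0.10 to 0.25), and it did not pass in either. With arrays centred on their medians the P3 change was 0.23 and passed (limma adjusted p = 0.0299).

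Cpt1a, the liver form of the gatekeeping enzyme, had levels of 8.28, 8.14, 8.05 and 7.88 in Fed rats, 8.96, 8.71, 8.95 and 8.78 in P2 rats, and 8.89, 8.97, 8.80 and 9.14 in P3 rats. All 8 fasted rats lay above all 4 fed rats, and the fasted groups overlapped each other. Cpt1a was 1.69-fold higher in P2 than in Fed rats (log2 change 0.76 ± 0.103 SE, adjusted p = 0.000116) and 1.82-fold higher in P3 than in Fed rats (0.86 ± 0.103, adjusted p = 9.04e-06). The difference between P3 and P2 was 0.10, with an interval of -0.12 to 0.33 (adjusted p = 0.505). Endothelial markers were also higher, 4 of 5 in P2 and 3 of 5 in P3 against Fed, with none lower. Their summed level lay between 12.33 and 12.67 in P2 and 12.48 and 12.69 in P3, against 11.86 to 11.94 in Fed rats. Pecam1, an adhesion protein of vessel walls, rose by 0.69 in P2 and by 1.08 in P3, and Tek, the angiopoietin receptor, rose by 0.80 and 0.71. Smooth muscle markers rose too, 9 of 9 in P2 and 8 of 9 in P3 against Fed. The part of these cells in the Cpt1a and Acacb differences was not tested.

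Cpt1b, the muscle form, varied most among rats of the same fasted group. It had levels of 7.84, 7.77, 7.97 and 8.0 in Fed rats, 7.32, 7.48, 8.07 and 7.25 in P2 rats, and 8.83, 7.66, 8.26 and 8.25 in P3 rats. P2 rat 3 lay above every Fed rat while the other P2 rats lay below them, and P3 rat 2 lay below every Fed rat while the other P3 rats lay above them. Cpt1b averaged 8.25 ± 0.478 in P3, against 7.53 ± 0.376 in P2 rats (SD, n = 4 each), which was 1.65-fold (log2 change 0.72 ± 0.212 SE, limma adjusted p = 0.0204). The groups overlapped, and the call ended without P2 rat 1 (adjusted p = 0.0618), P2 rat 4 (0.0645) or P3 rat 1 (0.0552) and in a fit of only these groups (0.0504), with adjusted p between 0.0024 and 0.0645 over 20 alternatives. Against Fed the differences were -0.37 in P2 (interval -0.82 to 0.09, adjusted p = 0.249) and 0.35 in P3 (-0.10 to 0.81, adjusted p = 0.193). Without P3 rat 2 the P3 difference was 0.55 and passed (adjusted p = 0.0274).

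Cpt1b is the muscle form, so muscle markers were measured beside it. The summed level of 11 skeletal muscle markers lay between 9.11 and 9.38 in P3 and 9.42 and 9.58 in P2, against 9.54 to 9.64 in Fed rats. In P3 against P2, where Cpt1b was higher, 1 of the 11 rose (Tnnc2) and 2 fell (Myl1 and Tnnt3). The fast myosin genes Myh1, Myh2 and Myh4 averaged 3.71, 4.53 and 4.40 in P3, against 3.50, 4.61 and 4.27 in P2. These levels lay below the 95th percentile of the olfactory receptor genes (5.66), so their differences cannot be read. The Tnnc2 means, 5.91 in P3 and 5.54 in P2, lay below the brightest of those genes (6.03). The brightest markers add most to the summed level. Of the 9 smooth muscle markers none was called in P3 against P2. The part of muscle markers in the Cpt1b values was not tested. Chkb, a choline kinase gene that is the neighbour of Cpt1b on chromosome 7, was also higher in P3 than in P2 (log2 change 0.32 ± 0.0721 SE, limma adjusted p = 0.00434). Its levels were 8.07, 7.89, 7.85 and 7.97 in P3 rats, against 7.62, 7.65, 7.68 and 7.55 in P2 rats, without overlap.

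Cpt2, the enzyme of the inner membrane, had levels of 8.31, 8.50, 8.53 and 8.48 in Fed rats, 8.52, 8.51, 8.76 and 8.51 in P2 rats, and 8.72, 8.07, 8.19 and 8.39 in P3 rats. The groups overlapped in all comparisons. Its change was 0.12 in P2 against Fed (interval -0.14 to 0.39), -0.11 in P3 against Fed (-0.37 to 0.16) and -0.23 in P3 against P2 (-0.49 to 0.03, limma adjusted p = 0.188). Without P3 rat 1 the last of these was -0.36 and passed (adjusted p = 0.0185).

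Within P3 the same rat was highest for 4 of the 5 genes. P3 rat 1 had the highest Acacb, Mlycd, Cpt1b and Cpt2 of its group, and P3 rat 2 had the lowest of each. Cpt1a ran otherwise, with P3 rat 4 highest and P3 rat 3 lowest. The order was not particular to these genes. Of the beta-oxidation genes Acadl, for example, had the same highest and lowest P3 rat and Acaa2 did not. The share over all genes was not counted. P3 rat 1 also had the highest summed level of adipocyte markers in its group, at 15.23, while the other P3 rats lay between 14.65 and 14.77. P3 rat 2, at 14.77, was not the lowest in this sum, to which the brightest markers add most. It was the lowest of its group for some single markers, Plin1, Lipe, Cebpa and Slc2a4 among them. For others, such as Adipoq, Fabp4 and Lpl, it was not. The part of the adipocyte markers in these differences was not tested. Without P3 rat 1 the Acacb change in P3 against Fed was 3.91, the lowest value when any 1 rat was left out.

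**Figure D2:**
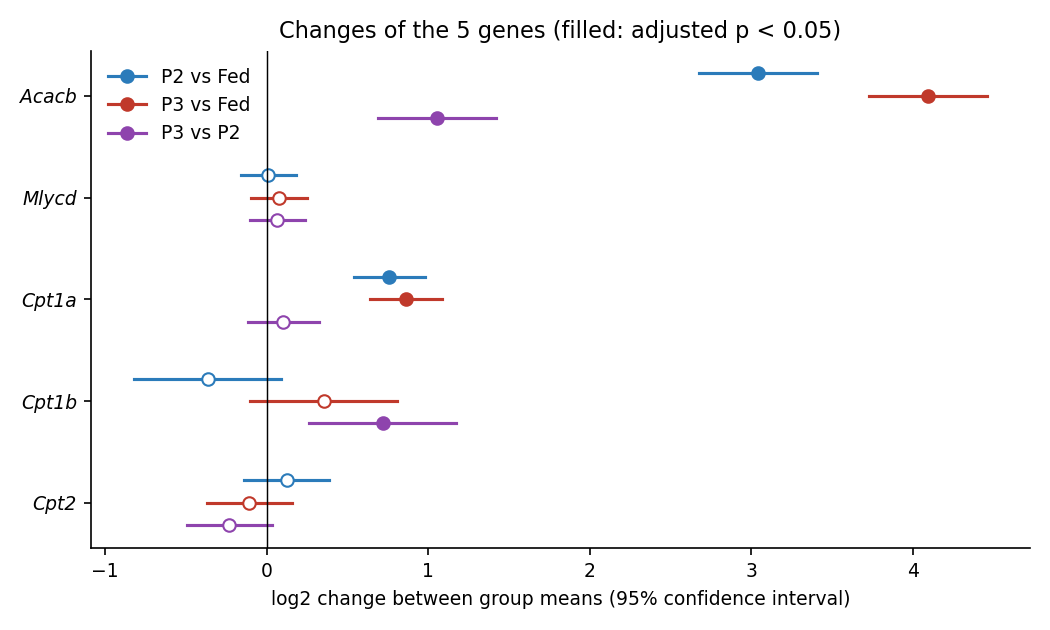
Log2 change between group means (horizontal axis) with its 95% confidence interval for each gene and comparison, filled where the limma adjusted p was below 0.05. With Fed values raised to at least 6.03, the Acacb means were higher by 2.82 in P2 and 3.88 in P3 against Fed. Acacb is plotted at the fitted 3.05 and 4.10, with intervals that do not allow for the Fed level lying near background. Cpt1a was higher by 0.76 and 0.86, and the intervals of Mlycd and Cpt2 included 0 in every comparison.

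Whether genes of opposite or successive roles changed unequally was asked within arrays, by taking the log2 value of one gene minus that of the other in each rat. The differences of different probe sets have no absolute meaning, and only their change between groups is read. Group means were compared by a two-sided exact permutation test of 4 against 4 rats, whose smallest possible p is 0.0286, and adjusted over 12 such tests. The carboxylases moved apart. Acacb minus Acaca averaged -1.71 ± 0.3 in P2, against -5.78 ± 0.333 in Fed rats (SD, n = 4 each), a change of 4.07 (exact p = 0.0286, adjusted p = 0.0381). In P3 it averaged -0.48 ± 0.247, a change of 5.30 from Fed and of 1.23 from P2, with the same exact p and no overlap. With Acacb in Fed rats raised to at least 6.03, as its Fed level lay near background, the changes from Fed were 3.85 in P2 and 5.08 in P3. Acaca itself fell by 1.03 ± 0.165 (SE) in P2 and fell by 1.21 ± 0.165 in P3 against Fed (limma adjusted p = 0.000412 and 3.1e-05). Acacb and Acaca each differed from Fed without overlap and in opposite directions. The smallest p of their difference against Fed followed from those results.

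Acacb, which makes mitochondrial-surface malonyl-CoA, was also compared with Mlycd, which removes it. Acacb minus Mlycd changed by 3.03 in P2 against Fed, 4.02 in P3 against Fed and 0.99 in P3 against P2 (exact p = 0.0286 and adjusted p = 0.0381 each), with no overlap of rats in any. With the same raised Fed values the changes from Fed were 2.81 and 3.8. Mlycd itself changed by 0.011, 0.076 and 0.065 in these comparisons. The difference between the 2 genes therefore largely restates the Acacb changes and is no separate support. Cpt1b minus Cpt1a fell by 1.13 in P2 against Fed (exact p = 0.0286, adjusted p = 0.0381). It lay between -1.64 and -0.87 in P2, against -0.44 to 0.12 in Fed rats, and without Fed rat 4 the change was -1.02 (exact p = 0.0571). Its change was -0.51 in P3 against Fed and 0.61 in P3 against P2, both with overlapping rats and an exact p of 0.1429. Without P3 rat 1 the change in P3 against Fed was -0.72 (exact p = 0.0286). The adjusted p of Cpt1b minus Cpt1a in P2 depends on the Acacb pairs, which share the smallest exact p among the 12 tests. Cpt1a itself differed from Fed there without overlap, and Cpt1b did not pass. Cpt1a minus Cpt2 rose by 0.64 in P2 and by 0.97 in P3 against Fed (exact p = 0.0286, adjusted p = 0.0381), whereas the difference between P3 and P2 was 0.34 (exact p = 0.1429). Its adjusted p depends on the Acacb pairs in the same way. Cpt1a itself differed from Fed without overlap in both phases, and Cpt2 did not pass. Cpt1a minus Cpt2 against Fed therefore largely restates the Cpt1a changes and is no separate support. Leaving out any 1 P2 rat in P2 against Fed, or Fed rat 2, 3 or 4 in P3 against Fed, gave an exact p of 0.0571 at changes of 0.58 to 0.67 and 0.89 to 0.97. The groups still did not overlap in these, nor for Cpt1b minus Cpt1a in P2 without Fed rat 4. With so few rats the exact p moves in coarse steps. Without P3 rat 1 the difference between P3 and P2 was 0.48 (exact p = 0.0286).

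**Figure D3:**
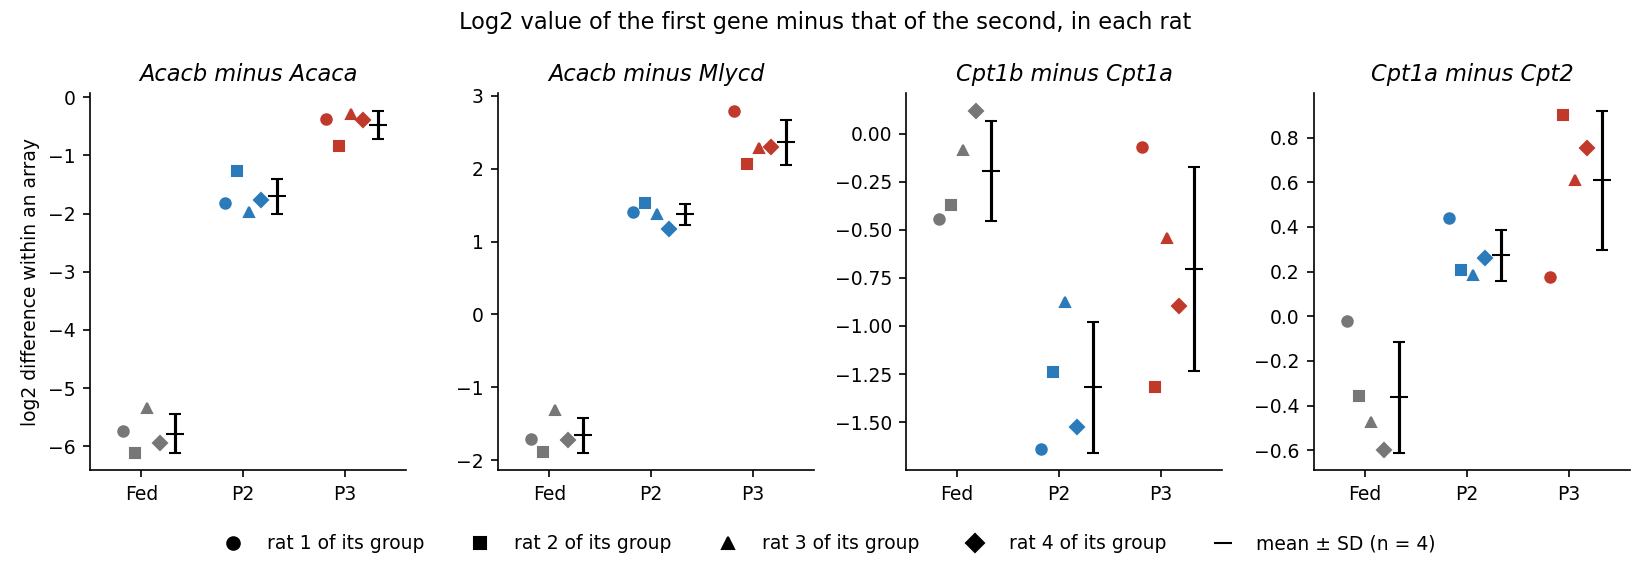
Log2 value of the first gene minus that of the second within each array (vertical axis, a separate scale for each pair), by group, with a marker shape for each rat number and the mean ± SD of 4 rats. Acacb minus Acaca averaged -5.78 in Fed, -1.71 in P2 and -0.48 in P3, and Cpt1b minus Cpt1a was lowest in P2, at -1.32 on average.

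Other genes of the pathway were read from lists chosen with earlier results of these data known. Of 7 measured genes for forming and using cytosolic malonyl-CoA, 6 fell and none rose in P2 and again in P3 against Fed, with medians of -1.03 and -1.21. The median over all genes was 0.01 in P2 and 0.05 in P3 against Fed. Fasn, the fatty acid synthase that consumes malonyl-CoA, fell by 4.48 in P2 and fell by 5.43 in P3 against Fed. Acly, which makes cytosolic acetyl-CoA from citrate, fell by 2.29 in P2 and fell by 1.82 in P3. Acacb was thus higher while the other carboxylase and the synthase were lower, in all 8 fasted rats against all 4 fed rats for each of Acacb, Acaca and Fasn.

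Of 4 other genes listed with the shuttle, 1 rose in P2 (Crat) and 2 fell in P3 (Crot and Cpt1c) against Fed. The Cpt1c call ended with arrays centred and with quantile normalisation (limma adjusted p up to 0.22). Neither Slc25a20 nor Crat was called in P3 against Fed. Slc25a20, the carrier of acylcarnitine, had levels of 9.24, 9.35, 9.33 and 9.35 in Fed rats, 9.57, 9.47, 9.77 and 9.67 in P2 rats and 9.68, 9.25, 9.18 and 9.01 in P3 rats. It differed by 0.31 ± 0.121 in P2 against Fed (limma adjusted p = 0.0816) and by -0.03 in P3 against Fed (adjusted p = 0.837). The P2 difference passed with arrays centred, with quantile or cyclic loess normalisation, in a fit of only these groups and without P3 rat 1, with adjusted p between 0.0127 and 0.198 over 20 alternatives. In P3 against P2 it was lower by the test (-0.34, adjusted p = 0.0492), a call that ended in 13 of 20 alternatives. Crat, the mitochondrial carnitine acetyltransferase, fell by 0.59 in P3 against P2 (adjusted p = 0.00122), and Crot, the peroxisomal octanoyltransferase, fell by 0.67 (adjusted p = 0.000913). Crat was higher in P2 than in Fed rats (0.36, adjusted p = 0.0308), and that call ended without Fed rat 1, 2 or 4 or P2 rat 3, at up to 0.0968.

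Of 4 measured genes of carnitine supply, 1 rose and 1 fell in P2 against Fed, and 2 rose and 1 fell in P3 against Fed. The 2 include Bbox1, whose means were 3.39 in Fed and 3.71 in P3 rats. These lay below the 95th percentile of the olfactory receptor genes (5.66), so its difference cannot be read. Its call ended in 8 of 19 alternatives. Aldh9a1, an aldehyde dehydrogenase of carnitine synthesis, rose by 0.47 in P2 and by 1.84 in P3 against Fed (limma adjusted p = 0.000788 and 8.52e-10). Tmlhe, the hydroxylase of the first step of that synthesis, fell by 0.54 in P2 and fell by 0.90 in P3. Slc22a5 and Slc22a4, which carry carnitine and related compounds into cells, lie on a probe set of several genes and were not analysed here. Among 5 acyl-CoA synthetases, Acsl1, the main form of fat cells, fell by 1.75 in P3 against Fed and differed by 0.04 in P2 (adjusted p = 0.887), while Acsl4, which prefers arachidonic acid, rose by 0.50 in P2 and by 2.41 in P3.

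Of 15 beta-oxidation enzymes 2 rose and 3 fell in P2 against Fed, and 1 rose and 9 fell in P3 against Fed. With arrays centred the P3 counts were 3 and 6. In P3 against P2 none rose and 8 fell. Adipocyte markers were also lower in P3 (14.65 to 15.23, against 15.73 to 15.77 in Fed rats), and their part in these counts was not tested. Acaa2, the last thiolase of the spiral, fell by 1.14 in P3 against Fed, and Acadl, a long-chain acyl-CoA dehydrogenase, rose by 0.60. Cpt1a was higher in P3 than in Fed rats, while 9 of the 10 called enzymes downstream of it were lower.

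The catalytic subunits of AMPK ran in different directions in P2. Prkaa1 rose by 0.94 in P2 and by 1.17 in P3 against Fed (limma adjusted p = 1.96e-06 and 3.61e-08). Prkaa2 fell by 0.94 in P2 (adjusted p = 0.012) and differed by -0.34 in P3 against Fed (adjusted p = 0.279). P3 rat 2 had a Prkaa2 level of 8.02, the other P3 rats 6.66 to 6.91, and Fed rats 7.16 to 7.60. Without P3 rat 2 the difference was -0.65 and passed (adjusted p = 0.00533). Of 11 genes of AMPK and its upstream kinases, 2 rose and 3 fell in each phase against Fed. With arrays centred, 3 rose and 3 fell in P2 and 4 rose and 2 fell in P3.

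Among 16 measured transcription regulators 6 rose and 1 fell in P2, and 8 rose and 2 fell in P3 against Fed. With arrays centred, 8 rose and 1 fell in P2 and 10 rose and 2 fell in P3. Both counts of higher genes include Ppargc1a, which averaged 4.13 in Fed, 4.72 in P2 and 4.89 in P3 rats. These levels lay below the 95th percentile of the olfactory receptor genes (5.66), so its differences cannot be read. Its P2 call ended in 8 of 19 alternatives. Klf15, a fasting- and glucocorticoid-responsive factor, rose by 1.24 in P2 and by 2.39 in P3, and Foxo1, which insulin signalling restrains, rose by 0.60 and 1.08. Mlxipl, the carbohydrate response factor that drives lipogenic genes, fell by 1.37 in P2 and fell by 2.01 in P3. Ppara, the fatty acid receptor known to induce carnitine palmitoyltransferase genes in liver, differed by 0.03 in P2 (adjusted p = 0.891) and was higher in P3 (fitted difference 0.49, adjusted p = 0.00571). Its means of 5.93 in Fed and 5.96 in P2 rats lay below the brightest olfactory receptor gene, at 6.03, so the P2 difference cannot be read. With Fed values raised to that gene the P3 difference of means was 0.38. Pparg, the receptor of fat cell differentiation, fell by 0.80 in P3. Of 10 measured PPAR-responsive genes 3 rose and none fell in P2, and 5 rose and 1 fell in P3 against Fed. The 5 include Acot1, whose means were 3.17 in Fed and 3.87 in P3 rats. These lay below the 95th percentile of the olfactory receptor genes (5.66), so its difference cannot be read. Pdk4, the pyruvate dehydrogenase kinase, rose by 3.05 in P2 and by 5.11 in P3, and Plin2, a droplet coat protein gene, rose by 1.03 in P3 (adjusted p = 1.69e-06). Ucp3, a mitochondrial carrier gene, fell by 1.29 in P3.

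**Figure D4:**
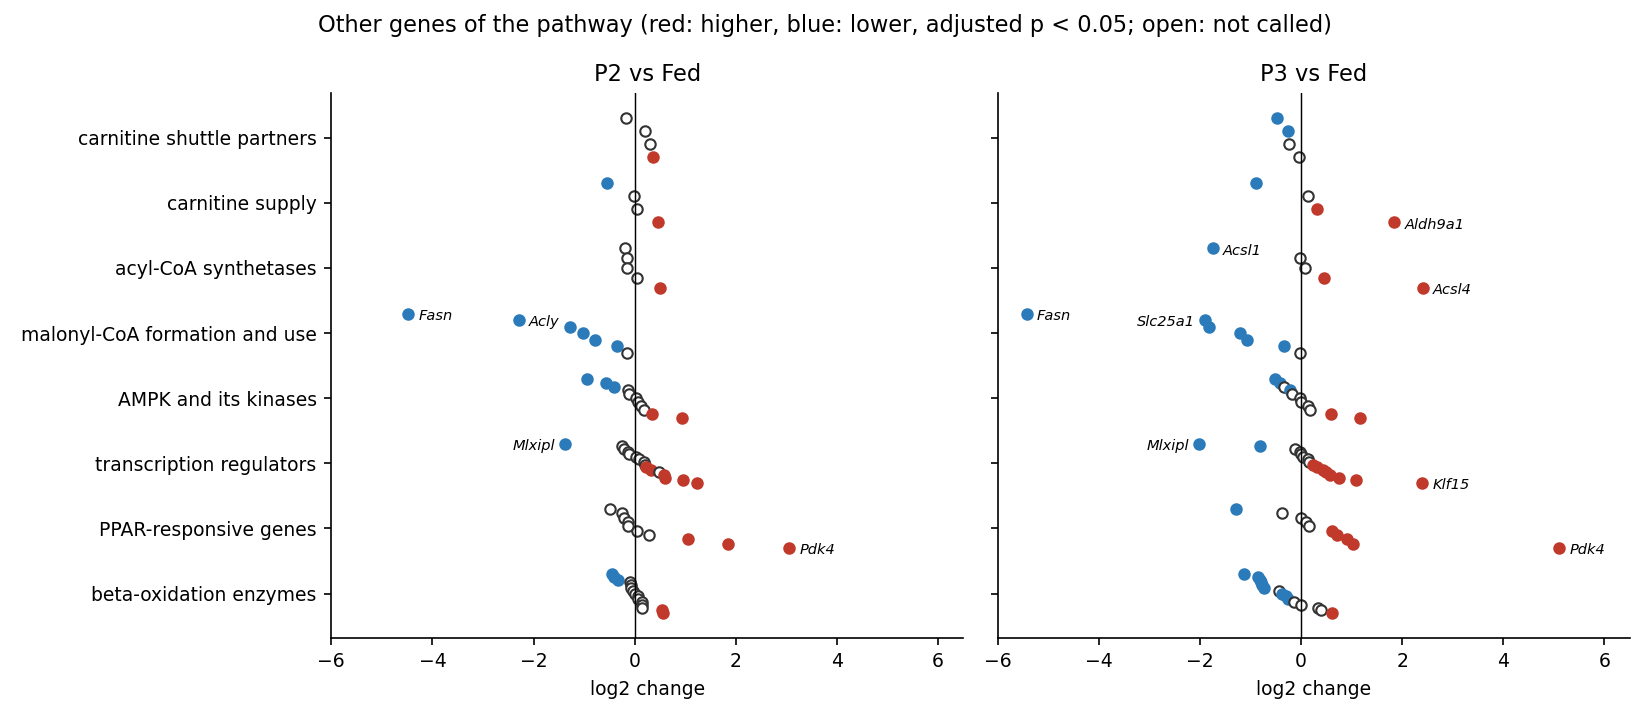
Log2 change (horizontal axis) in P2 against Fed, on the left, and in P3 against Fed, on the right, of the measured genes of 8 lists, filled red where higher and blue where lower by the limma test and open where not called. All 7 genes of malonyl-CoA formation and use lay left of 0 in both, with Fasn at -4.48 and -5.43, and beta-oxidation enzymes shifted left in P3.

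Profiles were compared over the 12 arrays by the root mean square difference between log2 levels, each gene centred on its own mean, against 14495 other named genes. The profile most like that of Acacb was that of Thbs1, a matrix glycoprotein (root mean square difference 0.414), followed by the adhesion receptor gene Adgrg2 (0.552) and the monooxygenase gene Fmo2 (0.556). Thbs1 averaged 8.03 ± 0.49 in Fed, 11.4 ± 0.156 in P2 and 12.39 ± 0.306 in P3 rats (SD, n = 4 each). Cpt1a lay closest to Pear1 (0.103), an endothelial and platelet receptor gene, Lmcd1 (0.105) and Zbtb38 (0.108). Cpt1b lay closest to Agtpbp1 (0.176), which encodes a tubulin-trimming carboxypeptidase, Cox5a (0.234), a respiratory chain subunit, and the neutrophil protein gene S100a9 (0.244). The S100a9 means, 4.95 in Fed, 4.9 in P2 and 5.53 in P3 rats, lay below the 95th percentile of the olfactory receptor genes (5.66). Its profile is thus that of a probe set near background. Agtpbp1 averaged 7.98 ± 0.102 in Fed, 7.72 ± 0.17 in P2 and 8.24 ± 0.373 in P3 rats, with P3 rat 2 lowest in its group and P3 rat 1 highest, as for Cpt1b.

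**Figure D5:**
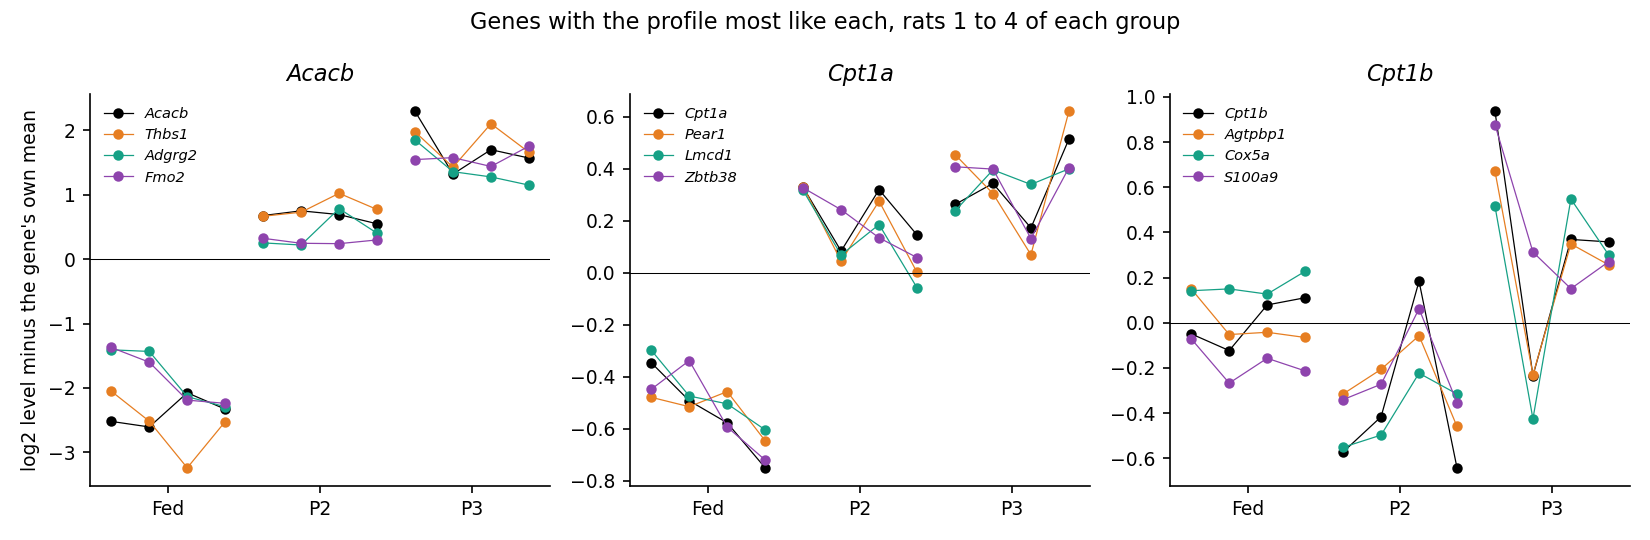
Log2 level minus the gene's own mean over 12 arrays (vertical axis) for Acacb, Cpt1a and Cpt1b, in black, and the 3 genes with the most similar profile to each, in colour, for rats 1 to 4 of each group. Lines join points of one gene within a group and mark no order among rats, and the root mean square differences to the closest genes were 0.414 for Acacb, 0.103 for Cpt1a and 0.176 for Cpt1b.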

How the data were processed

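Expression was measured in epididymal fat of 12 rats, 1 array each, grouped by sample title. The authors deposited log2 expression values per probe set, made with RMA, a method that corrects background, normalises by quantiles and summarises probes, per the submitters' processing notes, which also name GCOS and Affymetrix Expression Console 1.1. How RMA was set is not stated there. No batch was tested.

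Of 29215 probe sets, 15310 had 1 gene in the platform annotation. The brightest probe set stood for each gene, which left 14506 genes. The 12 arrays were fitted together by group with limma 3.58.1 under R 4.3.3 (functions lmFit and eBayes), adjustment followed Benjamini-Hochberg across the 14506 genes, and a call is an adjusted p below 0.05. The steps were tested on simulated data with known changes. The p-values rest on differences among individual rats, and the number of arrays limits the precision. Alternatives were other normalisations, no dim genes, the mean of probe sets, another variance model, only the groups compared, a replicate block, and each rat left out.

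The genes, lists and motifs were chosen with earlier results of these data known. Besides the 5 genes, the text names up to 3 genes per list and comparison with the smallest adjusted p, a few fixed genes, and the 3 most similar profiles. Pparg, Ppargc1a, Ucp3, Acvr1c, Pnpla2, Lep, Slc2a4, Plin1, Lipe, Cebpa, Adipoq, Fabp4, Lpl and the myosin genes were named after their values were seen. Promoter sequences are RefSeq's, build GRCr8, and the window of Cpt1b was not used here. Plots were drawn with matplotlib 3.10.9 in Python 3.11.15.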

Additional observations from a re-analysis of the deposited data

Results flagged for a closer look

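Of 27 groups of 4 rats examined for a rat far from the others, over the 5 genes and 4 within-array differences, 1 stood out by Dixon's test at its 95% level. P2 rat 3 had a Cpt2 level of 8.76, while the other P2 rats lay between 8.51 and 8.52. Chance flags about 1 group in 20, so 1 flag among 27 is not unusual. The same rat had the highest Cpt1b of its group, at 8.07.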

How the results depend on the processing

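Of the 20 alternatives, all kept the Acacb calls in the 3 comparisons (changes of 2.97 to 3.15 in P2 against Fed, 3.91 to 4.25 in P3 against Fed and 0.86 to 1.19 in P3 against P2) and the Cpt1a calls against Fed (0.69 to 0.84 in P2 and 0.79 to 1.02 in P3). The Mlycd difference in P3 against Fed passed with arrays centred (0.23, adjusted p = 0.0299), where the centring itself adds to every gene of the P3 arrays. The Cpt1b call in P3 against P2 ended in a fit of only these groups (0.72, adjusted p = 0.0504), which has fewer samples and leaves out the Fed spread. The main fit shares 1 estimate of the spread among the groups, and the Cpt1b SD was 0.11 in Fed, 0.376 in P2 and 0.478 in P3. Leaving out 1 rat at a time gave Cpt1b changes of 0.53 to 0.92 in P3 against P2 and 0.16 to 0.55 in P3 against Fed, and Cpt2 changes of -0.36 to -0.14 in P3 against P2. Counts of called genes stayed within 1.5 times in every alternative. Replicate numbers did not pair the rats: correlations of same-numbered deviations lay between -0.155 and 0.188, with 4 of 12 above 0.1, and an array correlated best with its own number in 5 of 24 cases. The replicate block gave 3539, 6526 and 3995 called genes in P2 against Fed, P3 against Fed and P3 against P2, against 3649, 6589 and 4046 without it, and changed no call of the 5 genes. Signal over background limits the Fed value of Acacb, so its changes against Fed may be understated. Leaving out 1 rat at a time, with an exact test of 3 against 4 rats added after the data were seen, kept all pair tests with Acacb at the smallest p of 0.0286 (Acacb minus Acaca 3.93 to 4.22 in P2 against Fed). As Acacb itself did not overlap between groups in any comparison, this largely repeats the Acacb result. Cpt1b minus Cpt1a ranged from -1.27 to -1.02 in P2 against Fed (p up to 0.0571) and from -0.72 to -0.31 in P3 against Fed (p from 0.0286). Cpt1a minus Cpt2 ranged from 0.56 to 0.75 in P2 and from 0.87 to 1.12 in P3 against Fed (p up to 0.0571 in each), and from 0.24 to 0.48 in P3 against P2 (p from 0.0286).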
